A study of Homo sapiens with 4 samples.

Results

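The 10 genes described here encode parts of the junctions that hold epithelial cells together: CDH1, EPCAM, OCLN, CLDN1, CLDN3, CLDN4, CLDN7, TJP1, JUP and DSP. They were taken by gene name from a table of counts for 60544 genes, and each name matched 1 gene. All 10 were among the 16802 genes that passed the filter on low counts. The libraries were poly(A) RNA from PC3, an established human prostate cancer line, with 2 libraries labelled shNC (the control short hairpin RNA) and 2 labelled sh812. The series names a METTL3 knockdown against control, and sh812 was read as the knockdown because it is the only other label. METTL3 encodes the methyltransferase that places N6-methyladenosine on messenger RNA. A single hairpin label stands for the knockdown, and whether the cells were a pool or 1 clone is not given in the labels.

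Adherens junctions join neighbouring cells through E-cadherin, whose cytoplasmic tail binds catenins that lead to the actin cytoskeleton. Tight junctions seal the space between cells with claudins and occludin, held from inside by scaffold proteins such as ZO-1. Desmosomes anchor keratin filaments through plakoglobin, plakophilins and desmoplakin. In carcinomas, loss of these proteins is a textbook feature of epithelial-mesenchymal transition, and prostate cancer lines differ widely in how much of them they keep.

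Counts of METTL3 were 1682 and 1379 for shNC against 269 and 313 for sh812 (log2 fold change -2.42, adjusted p = 5.54e-14, edgeR), so the knocked-down gene was low where the labels put it. Total counts ran from 31450648 to 37041330 per library. The epithelial markers KRT8, KRT18 and KRT19 were all present, with a summed level of 736 to 833 CPM (the count relative to the scaled library total) in shNC and 843 to 898 in sh812. KRT18 was the 1 of these 3 called higher, with a log2 fold change of 0.30 (adjusted p = 0.00793, edgeR). The KRT18 call was lost without sh812 replicate 2. The 5 fibroblast markers summed to 54.0 to 56.4 CPM in shNC and 48.0 to 54.8 in sh812, with COL1A2 called higher and COL3A1 called lower (log2 fold changes 0.50 and -1.51). The COL1A2 call was lost without sh812 replicate 1 or sh812 replicate 2. Of 5 leukocyte markers, 3 had no more than 3 counts in any library, and the whole list summed to 0.456 to 0.870 CPM. The endothelial markers VWF and CDH5 had no more than 6 counts in a library, while PECAM1 was present. Of 4 luminal prostate markers, KLK2 and KLK3 had 0 counts in all 4 libraries. The other 2 were tested, and 1 of them was called lower, with a log2 fold change of -2.23. The list summed to 18.7 to 21.1 CPM in shNC and 6.72 to 7.04 in sh812. The part of these marker changes in the junction gene results was not tested. The labels do not say whether replicates were separate cultures, so p-values here measure only the spread between these libraries, which may be technical. In RNA from whole cultures, fewer cells with a transcript and less of it per cell cannot be told apart.

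Of the 10 junction genes, 3 rose in sh812 and 0 fell when the threshold was an adjusted p of 0.05 (quasi-likelihood test of edgeR, Benjamini-Hochberg over all genes tested). DESeq2 called 2 higher and 0 lower. The 3 genes called in edgeR were CDH1, EPCAM and CLDN7, each by about the same amount, with log2 fold changes of 0.57, 0.45 and 0.53. Over all genes tested, 10.8% passed the same test, 5.43% upwards and 5.42% downwards. On the log2 scale the 10 genes had a median change of 0.14, against -0.0056 over all genes tested. The other 7 genes had log2 fold changes between -0.20 and 0.15. At an unadjusted p under 0.05 there were 4 higher and 1 lower, which adds CLDN4 upwards and TJP1 downwards; over all genes tested 24.8% passed that level in either direction. Both sh812 libraries lay above both shNC libraries in 6 genes and below them in 1, and the groups overlapped in 3. Over all genes tested the groups did not overlap in 53.6%, with sh812 higher in 26.2% and lower in 27.4%.

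**Figure D1:**
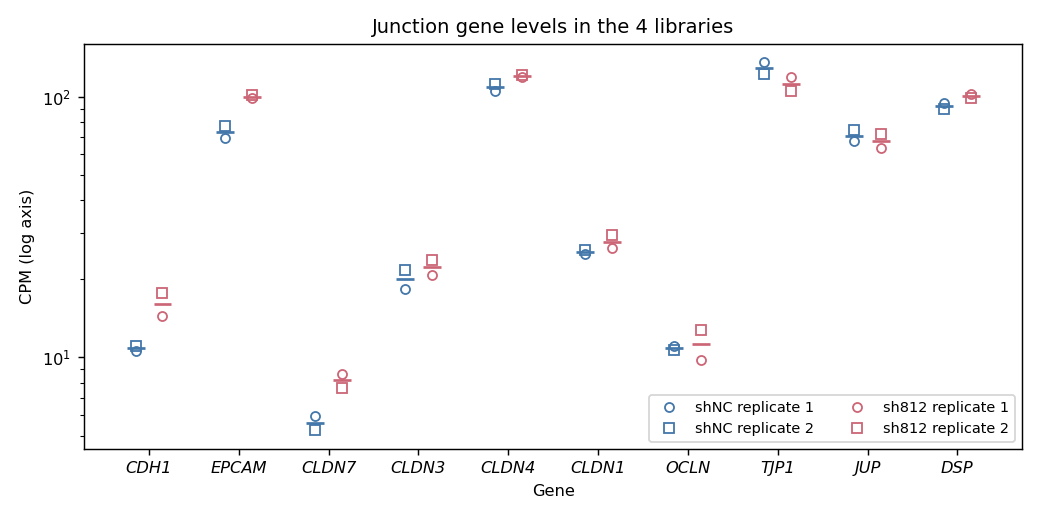
Level of each of the 10 junction genes in CPM (log axis) in each library, with shNC in blue, sh812 in red, circles for replicate 1, squares for replicate 2 and a bar at each group mean. CDH1, EPCAM and CLDN7 lie higher in both sh812 libraries, and the groups overlap for OCLN, CLDN3 and JUP.

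Levels of different genes are compared here per kilobase of exon (CPM per kb), using the merged exons of each gene in GENCODE 29. In shNC, EPCAM was the highest of the 10 genes on this measure, at 29.04 ± 2.17 CPM per kb (SD, n = 2). CLDN4 followed at 23.1 ± 0.890, CLDN3 at 15.7 ± 1.95 and JUP at 14.4 ± 1.02 CPM per kb (SD, n = 2). TJP1, DSP and CLDN1 were at 11.4, 9.10 and 6.91 CPM per kb. The 3 lowest were CLDN7 at 2.25 ± 0.209, CDH1 at 1.75 ± 0.050 and OCLN at 1.61 ± 0.0403 CPM per kb (SD, n = 2). In this order only CLDN3 and JUP had overlapping libraries. In sh812 the order of the 10 genes was the same, with TJP1 and DSP now overlapping at 9.94 and 9.93 CPM per kb. Genes at both ends of this scale were among the 3 that rose: EPCAM is the highest on it, CLDN7 and CDH1 are among the 3 lowest. The order depends on the length used. CLDN4 has 4702 bases of merged exons but a principal coding transcript of 1831, against 2519 and 1724 for EPCAM. Before division by length, CLDN4 was above EPCAM in shNC, at means of 108 and 73.2 CPM. An order by transcript length was not made.

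CDH1 encodes E-cadherin, the adhesion receptor of the epithelial adherens junction. The gene lies on the plus strand at chr16:68737225-68835548 (GRCh38, GENCODE 29, as for all positions here). It had 402 and 349 counts in shNC and 506 and 632 counts in sh812. On the CPM scale this was 10.6 and 11.04 in shNC and 14.4 and 17.7 in sh812. The groups did not overlap, and the sh812 libraries differed more from each other than the shNC libraries did. The log2 fold change was 0.57 (SE 0.13, adjusted p = 0.00511 in edgeR), a 1.48-fold difference. The size rested partly on sh812 replicate 2: without that library the log2 fold change was 0.41 and the adjusted p 0.163. An annotated antisense gene shares 347 exon bases with CDH1 and had 0 counts in all 4 libraries.

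CDH1 was a minor part of the classical cadherin transcripts. Per kb of exon it made up 5.90% and 6.19% of CDH1, CDH2 and CDH3 together for shNC, and 7.27% and 8.85% for sh812. CDH2, the N-cadherin gene that is typical of mesenchymal and neural cells, held 85.5% and 85.2% in shNC and 83.6% and 82.0% in sh812. CDH2 had a log2 fold change of 0.11 (adjusted p = 0.286 in edgeR), and CDH3, the P-cadherin gene, one of 0.24 (adjusted p = 0.165 in edgeR). CTNNA1, which encodes alpha-catenin, the link from the cadherin complex to actin, was nearly absent next to its partners. PC3 is known for a homozygous deletion in this gene. CTNNA1 had between 105 and 139 counts in a library, or 0.435 CPM per kb in shNC. The beta-catenin gene CTNNB1 was at 40.1 and the p120-catenin gene CTNND1 at 43.7 CPM per kb.

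EPCAM encodes a single-pass adhesion molecule of epithelia that binds claudin-7 at the membrane. It lies on the plus strand at chr2:47345158-47387601. EPCAM was at 69.3 and 77.0 CPM in shNC and 98.5 and 101 CPM in sh812, from 2628, 2436, 3457 and 3618 counts. Both sh812 libraries lay well above both controls, and the sh812 pair nearly coincided. The log2 fold change was 0.45 (SE 0.07, adjusted p = 0.000128 in edgeR), the smallest adjusted p among the 10 genes. It stayed between 0.37 and 0.53 with an adjusted p of at most 0.00325 under the 14 alternatives tried. SPINT1 and SPINT2, inhibitors of the membrane proteases of epithelia, differed by -0.12 and 0.08 on the log2 scale (edgeR adjusted p = 0.368 and 0.50).

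Claudins are four-pass membrane proteins that set the tightness and selectivity of the tight junction. CLDN3, CLDN4 and CLDN7 are often expressed together in carcinomas. Their start regions are shown side by side because CLDN7 rose and CLDN3 and CLDN4 did not pass the test. Each window is 300 bases from RefSeq (GRCh38.p14), from 250 bases before to 50 after an annotated start, read 5′ to 3′ on the gene's strand. Capitals mark CAGGTG or its reverse complement CACCTG, the E-box form bound by the SNAIL, SLUG and ZEB repressors. The CLDN7 window is chr17:7262429-7262728 (minus strand), the CLDN3 window chr7:73770221-73770520 (minus strand) and the CLDN4 window chr7:73830746-73831045 (plus strand).
CLDN7: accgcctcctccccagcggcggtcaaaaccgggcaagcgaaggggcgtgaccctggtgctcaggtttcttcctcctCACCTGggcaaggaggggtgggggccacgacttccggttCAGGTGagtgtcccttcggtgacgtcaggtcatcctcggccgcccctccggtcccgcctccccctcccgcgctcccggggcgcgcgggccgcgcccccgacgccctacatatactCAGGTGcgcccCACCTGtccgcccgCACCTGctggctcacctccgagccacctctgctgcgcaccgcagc
CLDN3: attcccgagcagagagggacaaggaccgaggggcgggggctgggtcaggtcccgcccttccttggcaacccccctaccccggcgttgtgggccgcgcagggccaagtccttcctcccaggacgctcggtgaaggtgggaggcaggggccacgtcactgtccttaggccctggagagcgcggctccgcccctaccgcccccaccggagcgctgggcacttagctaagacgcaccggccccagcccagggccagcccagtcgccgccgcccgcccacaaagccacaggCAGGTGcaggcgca
CLDN4: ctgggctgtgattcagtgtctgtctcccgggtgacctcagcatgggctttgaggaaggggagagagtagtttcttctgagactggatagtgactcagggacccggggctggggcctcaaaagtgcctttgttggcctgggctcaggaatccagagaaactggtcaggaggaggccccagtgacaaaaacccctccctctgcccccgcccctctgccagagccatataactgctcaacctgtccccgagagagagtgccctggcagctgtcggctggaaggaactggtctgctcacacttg

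The CLDN7 window held 5 matches, the CLDN3 window 1 and the CLDN4 window 0. Among 35116 such windows of all genes, 20.6% held at least 1 match and 0.094% held 5 or more. The cut of 5 was taken from the CLDN7 window itself, so the second share is a description and not a test. Among windows of tested genes, 18.7% held at least 1 match. Base composition was not matched: the CLDN7 window is 71.7% G and C, against a median of 64.3% in windows of tested genes. A second annotated start of CLDN7, at chr17:7263164-7263463, held 0 matches. Windows were found for 8 of the 10 genes, and those of OCLN, TJP1, JUP and DSP also held matches at 1 start or more, so 6 of the 8 genes had one. Genes with several starts had more chances of a match, and 7 of the 14 windows held one, of which those of OCLN overlap each other. CDH1 and EPCAM had no entry. A match is a string of letters, and whether any factor binds there was not measured.

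CLDN7, on the minus strand at chr17:7259903-7263983, was the least abundant of the 10 genes in CPM. It had 227 and 166 counts in shNC and 304 and 274 in sh812, or 5.98, 5.25, 8.66 and 7.66 CPM in that order. The groups did not overlap. The log2 fold change was 0.53 (SE 0.16, adjusted p = 0.0320 in edgeR). This call was the least stable of the 3. The adjusted p was 0.0540 with library size alone as scaling, 0.0742 in DESeq2 and 0.0593 with the trend on exon length removed, and over all 14 alternatives it ran from 0.0138 to 0.290. It was 0.0666, 0.290 and 0.0649 without shNC replicate 2, sh812 replicate 1 and sh812 replicate 2. CLDN7 shares 38 exon bases with ELP5 on the opposite strand, which had 1330 to 1767 counts, and whether counting used strand is not given in the sources used here. A pseudogene copy of CLDN7, CLDN7P1, had 0 counts in each library, and how reads that fit both were counted is not given either.

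CLDN4 lies on the plus strand at chr7:73799542-73832693 and was at 105 and 111 CPM in shNC and 119 and 121 CPM in sh812. The groups did not overlap, but the step was small, with a log2 fold change of 0.14 (95% interval 0.01 to 0.28, adjusted p = 0.156 in edgeR). Without shNC replicate 2 the adjusted p was 0.0206 and the log2 fold change 0.19. CLDN3, a single-exon neighbour on the minus strand at chr7:73768997-73770270, was at 18.2 and 21.7 CPM in shNC and 20.7 and 23.6 CPM in sh812. The CLDN3 libraries interleaved, and the log2 fold change of 0.15 had an interval from -0.08 to 0.38 (adjusted p = 0.430 in edgeR). Leaving out shNC replicate 1 gave 0.03, and leaving out shNC replicate 2 gave 0.29. CLDN1, on the minus strand at chr3:190305701-190322475, is required for the skin barrier. It was at 24.8 and 25.8 CPM in shNC and 26.2 and 29.4 CPM in sh812, with a log2 fold change of 0.14 (interval -0.06 to 0.34, adjusted p = 0.415 in edgeR).

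Within the claudin family, these 4 genes were not the most abundant. Of 24 claudin genes in the table, 9 passed the filter on low counts. CLDN11, best known from myelin and the testis, was the highest, with 46.7% and 45.4% of all claudin transcripts per kb of exon in shNC and 42.1% and 40.8% in sh812. CLDN4 came next, at 18.7% and 19.3% in shNC and 21.1% and 21.3% in sh812. CLDN7 held 2.01% and 1.71% in shNC and 2.90% and 2.54% in sh812. These shares are tied to each other, since they add up within a library. CLDN11 itself had a log2 fold change of -0.16 (adjusted p = 0.0728 in edgeR). With the trend on exon length removed it was at -0.18 (adjusted p = 0.0362 in edgeR). CLDN11 was also called lower with library size alone and with a mean CPM of at least 1.

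OCLN encodes occludin, a tight junction membrane protein, on the plus strand at chr5:69492292-69558104. It was at 11.1 and 10.7 CPM in shNC and 9.74 and 12.8 CPM in sh812, so the sh812 libraries lay on either side of the controls. The log2 fold change was 0.05 with an interval from -0.24 to 0.34 (adjusted p = 0.880 in edgeR), and was -0.16 without sh812 replicate 2. A pseudogene copy, OCLNP1, had 0 counts in each library. How the counting treated reads that fit both is not given in the sources used here, so the OCLN count is uncertain. TJP1 encodes ZO-1, the scaffold that ties claudins and occludin to actin, and lies on the minus strand at chr15:29699367-29968865. TJP1 was at 135 and 122 CPM in shNC and 118 and 105 CPM in sh812, the only one of the 10 genes with both sh812 libraries below both controls. The gap between groups was smaller than the gap within either pair. Its log2 fold change was -0.20 (SE 0.07, adjusted p = 0.0684 in edgeR). TJP1 sat at the threshold: the adjusted p was 0.0309 with library size alone, 0.0390 with no low-count filter, 0.0420 with a mean CPM of at least 1 and 0.0393 with the replicate number as a block. It was 0.000247 without shNC replicate 2, and over its 14 alternatives it reached 0.613, without sh812 replicate 2.

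JUP encodes plakoglobin, a catenin found in both adherens junctions and desmosomes, on the minus strand at chr17:41754604-41786931. It was at 67.4 and 74.5 CPM in shNC and 63.3 and 71.6 CPM in sh812, with overlapping groups. The log2 fold change was -0.07 with an interval from -0.23 to 0.09 (adjusted p = 0.626 in edgeR). DSP encodes desmoplakin, which links the desmosome to keratin filaments, on the plus strand at chr6:7541575-7586717. It was at 94.3 and 89.4 CPM in shNC and 102 and 98.5 CPM in sh812. The groups did not overlap, and the log2 fold change of 0.13 had an interval from -0.01 to 0.26 (adjusted p = 0.243 in edgeR). With the trend on exon length removed, DSP reached 0.20 on the log2 scale (adjusted p = 0.0362).

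**Figure D2:**
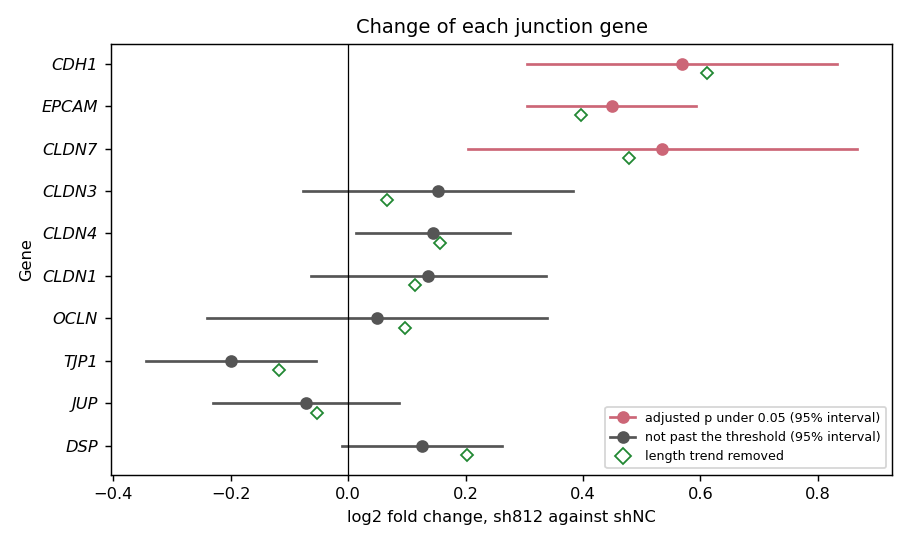
Fitted log2 fold change of sh812 against shNC for each gene (filled circle) with its 95% interval; red marks an adjusted p under 0.05, and green diamonds give the fit with each library's trend on exon length removed. CDH1, EPCAM and CLDN7 lie between 0.45 and 0.57, and the other 7 genes between -0.20 and 0.15.

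The fit was repeated with each library's trend of level on exon length removed. The merged exons of the 10 genes run from 1274 bases in CLDN3 to 11265 bases in TJP1. In that fit, CDH1 was at 0.61 on the log2 scale (adjusted p = 0.00306 in edgeR) and EPCAM at 0.40 (adjusted p = 0.000317 in edgeR). TJP1 and DSP, the longest, both moved upwards, to -0.12 and 0.20. CLDN7 and CLDN3, the shortest with EPCAM, moved downwards, to 0.48 and 0.07. The median of the 10 genes was again 0.14 after this step, and 3 passed, with DSP in the place of CLDN7.

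**Figure D3:**
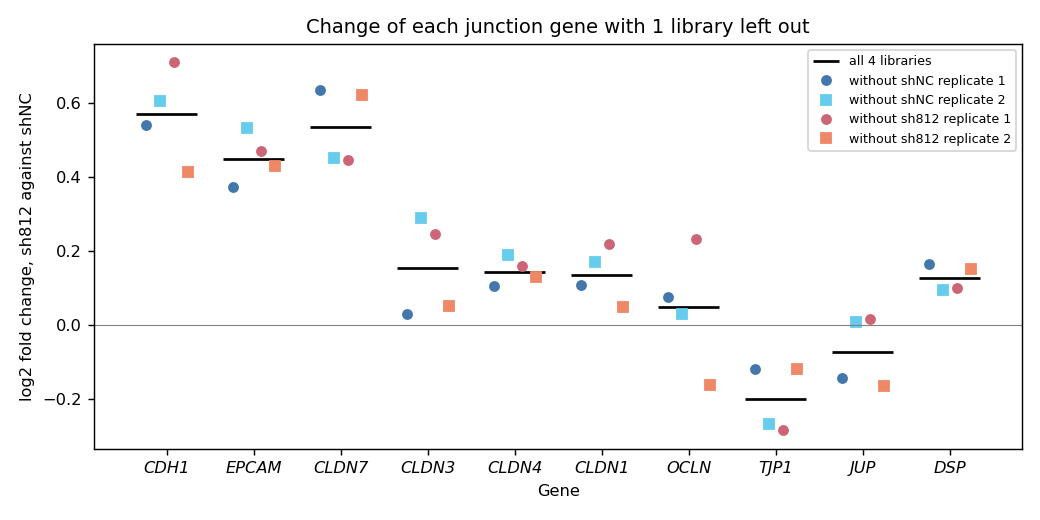
Fitted log2 fold change of each gene with all 4 libraries (black bar) and with 1 library left out (points, coloured by the library removed). EPCAM stays between 0.37 and 0.53, CDH1 spans 0.41 to 0.71, and OCLN and JUP have values on both sides of 0.

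The wider set of junction and polarity genes did not move as one. Of 60 other genes in 4 lists, 53 were tested, and 5 were called higher and 3 lower. Their median log2 fold change was -0.016, against -0.0056 over all genes tested, of which 10.8% were called. Scaling mattered here: with library size alone, 1 was called higher and 6 lower, while over all genes 561 were called higher and 1328 lower, against 912 and 910. In DESeq2, 3 of the 60 were higher and 1 was lower.

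Of the 15 other adherens junction genes, 13 were tested and 0 were called in edgeR, DESeq2 or limma-voom, with 1 higher and 2 lower at an unadjusted p under 0.05, a level that 24.8% of all genes tested passed. The list had a median log2 fold change of -0.013. The highest in CPM were the vinculin gene VCL and CTNNB1, which differed by -0.08 and 0.09 on the log2 scale (edgeR adjusted p = 0.414 and 0.320). CTNNB1 had an adjusted p of 0.0439 with the length trend removed. In the other direction, 1 gene of the list was called lower with library size alone.

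Of the 20 other tight junction genes, 16 were tested, 2 were called higher and 0 lower, and the median was -0.12. The list leaves out CLDN14, a tested claudin that was called lower (log2 fold change -0.76, adjusted p = 0.00056 in edgeR), so the count of 0 lower depends on the choice of genes. The shares over all genes tested were 5.43% higher and 5.42% lower. CGN encodes cingulin, a cytoplasmic adaptor that binds ZO proteins. Its mean was 11.4 ± 1.14 CPM in shNC and 15.4 ± 0.888 in sh812 (SD, n = 2), a log2 difference of 0.43 (adjusted p = 0.0264 in edgeR). CLDN12, a claudin without the usual binding tail for ZO proteins, rose from 61.7 ± 4.68 CPM in shNC to 72.7 ± 2.99 CPM in sh812 (SD, n = 2), a log2 difference of 0.24 (adjusted p = 0.0408 in edgeR). CLDN12 shares exon bases with GTPBP10 and CDK14 on the same strand. CGN and CLDN12 each lost the call under several alternatives, CGN in 4 of 13 and CLDN12 in 5 of 13, among them those without shNC replicate 2, sh812 replicate 1 or sh812 replicate 2.

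Of the 10 other desmosome genes, 9 were tested, 3 were called higher and 0 lower, and the median was 0.057. Among all genes tested, 5.43% were called higher and 5.42% lower. DSC2, a desmosomal cadherin, rose from 37.2 ± 2.49 CPM in shNC to 50.4 ± 5.50 CPM in sh812 (SD, n = 2), a log2 difference of 0.44 (adjusted p = 0.00201 in edgeR). It kept an adjusted p under 0.05 in 12 of 13 alternatives, and had 0.118 without sh812 replicate 2. The plakophilin genes PKP2 and PKP3, whose products join desmosomal cadherins to desmoplakin, differed by 0.32 and 0.25 on the log2 scale (edgeR adjusted p = 0.0388 and 0.0392). PKP2 was called in 8 of 13 alternatives and PKP3 in 8 of 13. PKP2 lost it without any one of shNC replicate 1, sh812 replicate 1 and sh812 replicate 2, and so did PKP3. PKP1, by far the most abundant plakophilin at 644 ± 11.2 CPM in shNC (SD, n = 2), had a log2 fold change of -0.11 (adjusted p = 0.225 in edgeR).

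Of the 15 polarity complex genes, all of which were tested, 0 were called higher and 3 lower, and the median was -0.016. The same test called 5.43% of all genes tested higher and 5.42% lower. DLG1, a scaffold of the Scribble polarity module, fell from 88.5 ± 5.47 CPM in shNC to 63.4 ± 2.30 CPM in sh812 (SD, n = 2), a log2 difference of -0.48 (adjusted p = 6.99e-05 in edgeR). It was called in each of its 13 alternatives, at values from -0.54 to -0.40. PARD3B and MPDZ, both scaffolds of apical complexes, differed by -0.73 and -0.46 on the log2 scale (edgeR adjusted p = 0.0286 and 0.0435). Their adjusted p-values were 0.0729 and 0.0979 in DESeq2, and 0.0300 and 0.0554 in limma-voom. MPDZ was -0.15 (adjusted p = 0.654) without shNC replicate 1, and PARD3B was -0.45 (adjusted p = 0.361) without sh812 replicate 2. These 3 genes have merged exons of more than 10 kb, and with the length trend removed DLG1 was at -0.40 (adjusted p = 0.000307) and the others had adjusted p-values of 0.0566 and 0.0946 in edgeR.

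**Figure D4:**
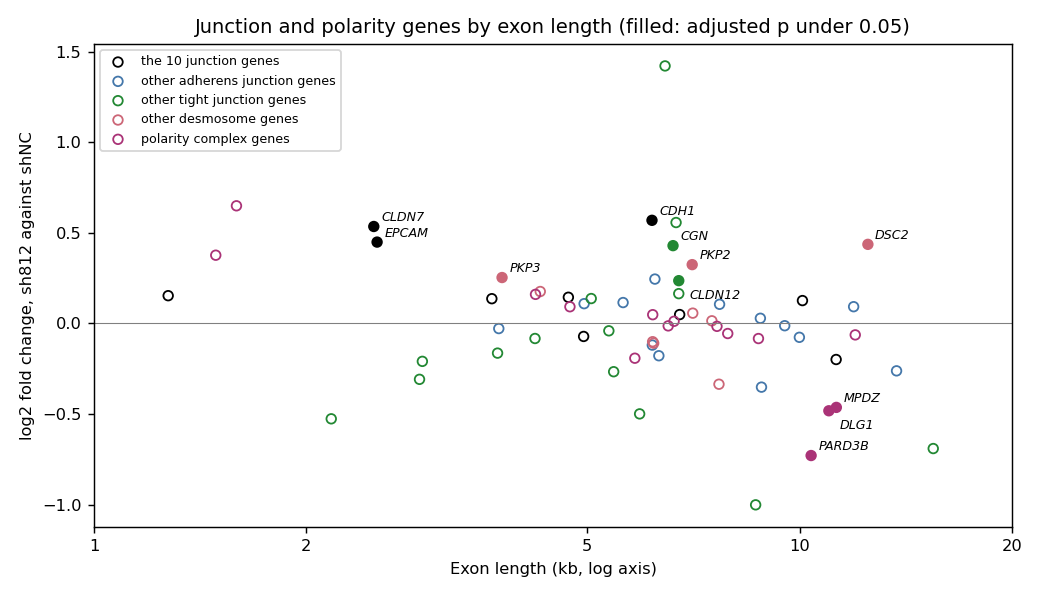
Fitted log2 fold change of sh812 against shNC by merged exon length (log axis) for the 10 junction genes (black) and the tested genes of the 4 other lists, with filled points for an adjusted p under 0.05. Called genes above 0 run from 2492 bases (CLDN7) to 12495 bases (DSC2), and the 3 called genes below 0 all exceed 10 kb.

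Of 16 regulators of junction gene transcription and splicing, 13 were tested, 3 were called higher and 1 lower. Over all genes tested, 5.43% were called higher and 5.42% lower. SNAI2, which encodes the E-cadherin repressor SLUG, fell from 51.2 ± 2.68 CPM in shNC to 38.1 ± 0.0786 CPM in sh812 (SD, n = 2), a log2 difference of -0.42 (adjusted p = 0.00112 in edgeR). ELF3, ESRP2 and TCF3 differed by 0.44, 0.31 and 0.23 on the log2 scale (edgeR adjusted p = 0.0094, 0.0298 and 0.0149). ELF3 and ESRP2 are epithelial factors, whereas TCF3 encodes E proteins that can repress CDH1. The 3 calls became 1 without sh812 replicate 1 and 0 without sh812 replicate 2. ELF3 had an adjusted p of 0.207 without sh812 replicate 2, TCF3 had 0.155 and 0.225 without sh812 replicate 1 and sh812 replicate 2, and ESRP2 had 0.206 and 0.204 there and 0.0707 with library size alone.

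METTL3 acts at a short consensus in which GGACU is a preferred form, often close to the stop codon, so the transcripts of the 10 genes were searched for GGACT in the GENCODE 29 sequences, on the sense strand only. The principal coding transcripts held between 0 and 7 matches. CLDN3 and CLDN4 were the densest, with 3.14 and 3.28 matches per kb, and CLDN1 and JUP had 0. The median of the 10 was 0.968 per kb, and that of 13237 transcripts of tested genes was 0.937. CDH1, CLDN3 and CLDN4 had a match within 200 bases of the last coding base, as did 37.1% of those transcripts. The 21-base stretches around the match nearest the stop codon are printed for the 3 claudins compared above, with the match in capitals. They lie at chr17:7261876-7261896 in CLDN7 (coding, 475 bases before the last coding base), chr7:73769387-73769407 in CLDN3 (coding) and chr7:73831868-73831888 in CLDN4 (after the stop codon).
CLDN7: ctgtggatGGACTgcgtcacg
CLDN3: gaccgcaaGGACTacgtctaa
CLDN4: tcttccctGGACTgagctcag

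Of the 3 genes that rose, CDH1 had 6 matches, EPCAM 2 and CLDN7 2, or 1.23, 1.16 and 1.30 per kb. These densities lie inside the middle range of all transcripts, whose quartiles are 0.557 and 1.40. Methylation was not measured in these libraries, and a match does not show a methylated site.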

How the data were processed

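Poly(A) RNA of 4 PC3 libraries, 2 shNC and 2 sh812, was sequenced after a strand-keeping dUTP preparation, per the labels' protocols. The deposited table holds raw counts per gene, whole numbers with a different total in each library. The submitters' processing notes name fastp, STAR 2.7.1a, featureCounts, DESeq2 and the build hg38. Annotation release and strand setting are not given in the sources used here.

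The test was that of edgeR 4.0.16 under R 4.3.3 (filterByExpr, TMM, glmQLFit and glmQLFTest, no covariate) over all genes, with Benjamini-Hochberg adjustment and a threshold of 0.05. CPM uses TMM-adjusted library sizes. Fold changes use a prior count of 0.125, and SE and 95% intervals come from the quasi-likelihood F statistic. Positions and exon lengths come from GENCODE 29, which covered 16635 of the tested genes. Alternatives were RLE, upper quartile and library size scaling, 2 other filters, DESeq2 1.42.0, limma-voom (limma 3.58.1), a replicate block, removal of each library's lowess trend (span 0.3) on exon length, a prior count of 2, and each library left out.

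The genes and lists were chosen with earlier results of these data known. Named genes are METTL3, the 10 junction genes, CTNNA1, CDH2, CDH3, and up to 6 called genes of each other list by smallest p, or, in lists with no call, the 2 highest in CPM. CTNND1, CLDN11, PKP1 and CLDN14 were added after their values were seen. PALS1 is MPP5 in the table. Some genes of the lists are not reported here by name.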

Additional observations from a re-analysis of the deposited data

How the results depend on the processing

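METTL3 kept its call in all 13, from -2.52 to -2.33 on the log2 scale. CDH1 was called in all alternatives that keep 4 libraries. The number of junction genes called lower was 1 (TJP1) under the replicate block, with library size alone, with a mean CPM of at least 1 and without a filter, against 0. The other junction genes called higher numbered 1 with library size alone and 3 with DESeq2, against 5. Those called lower numbered 6 with library size alone, 5 with a mean CPM of at least 1 and 1 with DESeq2, against 3. The cause was not tested.

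Leaving out a library leaves 1 library in a group, assumed to vary like the other group. The count of all called genes then ran from 587 to 3252, against 1822. Junction genes called higher ran from 1 to 3 and lower from 0 to 1. Other junction genes called higher ran from 0 to 6 and lower from 1 to 8. OCLN ran from -0.16 (reversed, without sh812 replicate 2) to 0.23, and JUP from -0.17 to 0.015, reversed at 0.0073 and 0.015 without shNC replicate 2 and sh812 replicate 1.

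Replicate numbers are shared between groups, but same-numbered libraries deviated with a correlation of 0.0164 across all genes tested. In the junction genes, the log2 ratio of replicate 2 to replicate 1 had the same sign in both groups, except in OCLN. For shNC and sh812 it was -0.15 and -0.17 in TJP1, -0.19 and -0.18 in CLDN7, and -0.05 and 0.39 in OCLN. The labels do not say whether replicate numbers mark a shared batch. With the replicate block 2001 genes were called, METTL3 was at -2.42, and TJP1 was the one junction gene whose call changed. CDH1, OCLN and CLDN7, under 20 CPM, had SE of 0.13 to 0.16, against 0.06 to 0.08 for the 5 above 60 CPM.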

Other observations

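The genes here were chosen after their values were seen. CLDN14, outside the lists, is a claudin of the inner ear and kidney and had 498 and 444 counts in shNC and 303 and 263 in sh812. Its log2 fold change was -0.76 (SE 0.14, adjusted p = 0.00056 in edgeR), opposite in sign to that of CLDN7. PECAM1, an adhesion molecule of endothelial junctions and 1 of the 4 endothelial markers, was at 23.7 ± 0.0908 CPM in shNC and 35.7 ± 3.96 in sh812 (SD, n = 2), a log2 difference of 0.59 (adjusted p = 0.000222 in edgeR). The other endothelial markers VWF, CDH5 and TEK together stayed under 1 CPM, so the summed level of that list, 24.2 to 24.6 CPM in shNC and 33.3 to 39.4 in sh812, was almost all PECAM1.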
